A study of Mus musculus with 2 samples.

Results

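The transforming growth factor-beta (TGF-beta), activin and BMP signals were described by 10 genes, chosen by what their products do out of the 31053 genes measured. They were the ligand genes Tgfb1, Tgfb2, Tgfb3, Inhba and Bmp4, the receptor genes Tgfbr1 and Tgfbr2, the antagonist Fst, and the target genes Tgfbi and Smad7. Their levels were read in 2 single-cell libraries of brain tumour from C57BL/6 mice, replicates 1 and 2, which carry mutant IDH1 (mIDH1) and were taken when the animals showed symptoms. Both libraries belong to 1 group, so no other genotype or treatment could be set against them, and cell types were compared inside the libraries. The labels name no driver other than mutant IDH1, and they do not say whether the libraries come from separate animals. The p-values below can thus measure no more than the spread between these libraries, which may be technical. The edgeR fit used below estimates that spread across genes. A gene's own disagreement between the libraries therefore hardly enters its standard error or p-value. The series title concerns G-CSF, a cytokine that acts on myeloid cells.

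Ligands of the TGF-beta family are secreted dimers that bring together a type II and a type I receptor kinase on the receiving cell, and the activated kinase phosphorylates Smad proteins, which then enter the nucleus and change transcription. TGF-beta itself is released in a latent form and has to be activated outside the cell, activins and BMPs are held in check by secreted binding proteins such as follistatin, and inhibitory Smads close the loop inside the cell. In the mouse brain, TGF-beta signalling is known for keeping microglia in their mature state, and in tumours it is known for acting on immune cells.

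The promoters of 3 members are shown because the results turn on these genes: Inhba was high in tumour cells and nearly missing from macrophages, and the receptor pair Tgfbr1 and Tgfbr2 was high in macrophages. The letters are the 250 bases before the RefSeq transcript start on GRCm38.p6, read 5′ to 3′ on the strand of the gene, at chr13:16011601-16011850 (plus strand) for Inhba, chr4:47352972-47353221 (plus strand) for Tgfbr1 and chr9:116175364-116175613 (minus strand) for Tgfbr2. Capitals mark matches to GAGGAA, a core recognised by the myeloid factor PU.1, or to CAGAC, a SMAD-binding core; the AP-1 motif TGANTCA was searched too, and all were searched on both strands.
Inhba: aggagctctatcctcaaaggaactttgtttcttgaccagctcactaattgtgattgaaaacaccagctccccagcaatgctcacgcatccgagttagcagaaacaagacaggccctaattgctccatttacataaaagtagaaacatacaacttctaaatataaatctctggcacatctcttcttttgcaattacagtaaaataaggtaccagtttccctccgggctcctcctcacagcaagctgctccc
Tgfbr1: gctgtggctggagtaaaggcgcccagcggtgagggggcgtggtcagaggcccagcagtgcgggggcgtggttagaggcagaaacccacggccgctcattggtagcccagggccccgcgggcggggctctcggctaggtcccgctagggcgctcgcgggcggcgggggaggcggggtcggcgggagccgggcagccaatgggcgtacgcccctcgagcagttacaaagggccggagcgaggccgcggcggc
Tgfbr2: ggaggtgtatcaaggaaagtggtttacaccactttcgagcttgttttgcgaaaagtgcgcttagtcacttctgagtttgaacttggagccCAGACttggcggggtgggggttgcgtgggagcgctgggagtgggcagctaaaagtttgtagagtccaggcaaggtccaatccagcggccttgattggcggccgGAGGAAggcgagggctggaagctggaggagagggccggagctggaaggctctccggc
The Tgfbr2 window held 1 match to GAGGAA and 1 to CAGAC, which do not overlap, and no motif was found in the windows shown for Inhba and Tgfbr1. Among 32851 promoter windows of the same length, 23.3% held GAGGAA, 42.2% held CAGAC and 6.75% held TGANTCA, so the matches are a description of the letters and not of binding. RefSeq windows were found for 7 of the 10 members. Tgfbr1 had a further window inside the gene, not shown, which held 1 match to GAGGAA and 1 to CAGAC.

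The libraries held 2704 and 2266 barcodes with 63001350 and 58915133 unique molecular identifiers (UMIs, tags that count captured RNA molecules), and 3186 of the 4970 barcodes passed the filters of at least 200 genes and at most 15% mitochondrial UMIs. Gates on single marker genes then assigned 1816 cells as tumour, 64 as monocytes, 31 as neutrophils, 138 as basophils, 76 as dendritic cells, 52 as T cells and 441 as macrophages or microglia, where each cell passed exactly 1 of the 7 gates; 237 cells passed several gates and 331 passed none. Depth differed widely, with 92500165 UMIs in the tumour gate, 4359306 in the macrophage/microglia gate and only 70582 in the neutrophil gate. Of the 441 macrophage/microglia barcodes 124 held no UMI of the nuclear transcript Malat1. They were kept in this gate and in its shares of cells below. All levels are in CPM, the UMIs of a gene scaled to a common UMI total over the summed cells of a gate in a library, given for replicate 1 and then replicate 2, and they are shares of that gate's RNA. Every gate held all its own markers at 10 CPM or more apart from the neutrophil gate, where 4 of 5 were and Camp was at 0. The libraries shared 10 barcodes. The tumour markers Sox2, Nes, Tnc and Cdkn2a summed to 563 and 553 CPM in the tumour gate, to 216 and 253 CPM in the basophil gate, to 115 and 97.7 CPM in the dendritic gate, and to 15.2 and 10.5 CPM in the macrophage/microglia gate, and all 4 were at 0 in the neutrophil gate. The dendritic gate also held B cell markers at 160 and 188 CPM and T cell markers at 345 and 14.5 CPM, the macrophage/microglia gate held red cell genes at 1081 and 485 CPM, and the part of any of these in the results was not tested. The macrophage markers C1qb, C1qc, Csf1r, Apoe and Mrc1 summed to 17.3 and 20.5 CPM in the tumour gate and to 70514 and 76831 CPM in the macrophage/microglia gate.

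Each other gate was set against the macrophages and microglia in 1 edgeR quasi-likelihood fit across 13970 genes, and a gene was called where its Benjamini-Hochberg adjusted p was under 0.05 and its log2 fold change at least 1 in size. In tumour cells 4 of the 10 members were higher (Tgfb3, Inhba, Bmp4 and Fst) and 4 were lower (Tgfb1, Tgfbr1, Tgfbr2 and Tgfbi), while 47.1% of all genes tested were called, 26.5% higher and 20.6% lower. The median log2 fold change of the members was 0.37 and that of all genes 0.32, so the members did not move in 1 direction together. Tgfb2, Tgfb3, Bmp4 and Fst reached the minimum of 20 UMIs for testing through the tumour cells alone, so their direction in that comparison was largely set by the filter. In monocytes 1 member was higher (Tgfbi) and 3 were lower (Tgfbr1, Tgfbr2 and Smad7), beside 12.9% of all genes called, 5.92% higher and 6.99% lower, and the median was -1.03 for the members and -0.16 for all genes. In neutrophils 2 were higher (Inhba and Tgfbi) and 3 lower (Tgfbr1, Tgfbr2 and Smad7), beside 11.3% of all genes, 3.97% higher and 7.35% lower, with medians of -2.13 for the members and -3.54 for all genes. In basophils Inhba was higher and 4 members were lower (Tgfbr1, Tgfbr2, Tgfbi and Smad7), beside 26.2% of all genes, 13.6% higher and 12.6% lower, with medians of -3.15 for the members and -0.01 for all genes. In dendritic cells 5 were lower (Tgfb1, Tgfbr1, Tgfbr2, Tgfbi and Smad7) and none higher, beside 21.5% of all genes, 10% higher and 11.5% lower, with medians of -1.73 for the members and 0.00 for all genes. In T cells 3 were lower (Tgfbr1, Tgfbr2 and Tgfbi) and none higher, beside 16.7% of all genes, 6.08% higher and 10.6% lower, with medians of -4.08 for the members and -0.22 for all genes. These comparisons share the macrophage/microglia sums, so a gene that is high there, as both receptors were, is called lower in several of them at once. The member medians also take in genes with almost no UMIs in either group. In T cells Tgfb2, Tgfb3, Inhba and Fst had no UMI, against at most 2 each in macrophages/microglia. Fst had a log2 fold change of -3.87 ± 10.7 there and of -3.85 ± 7.40 in basophils, so the medians do not measure a shared drop.

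**Figure D1:**
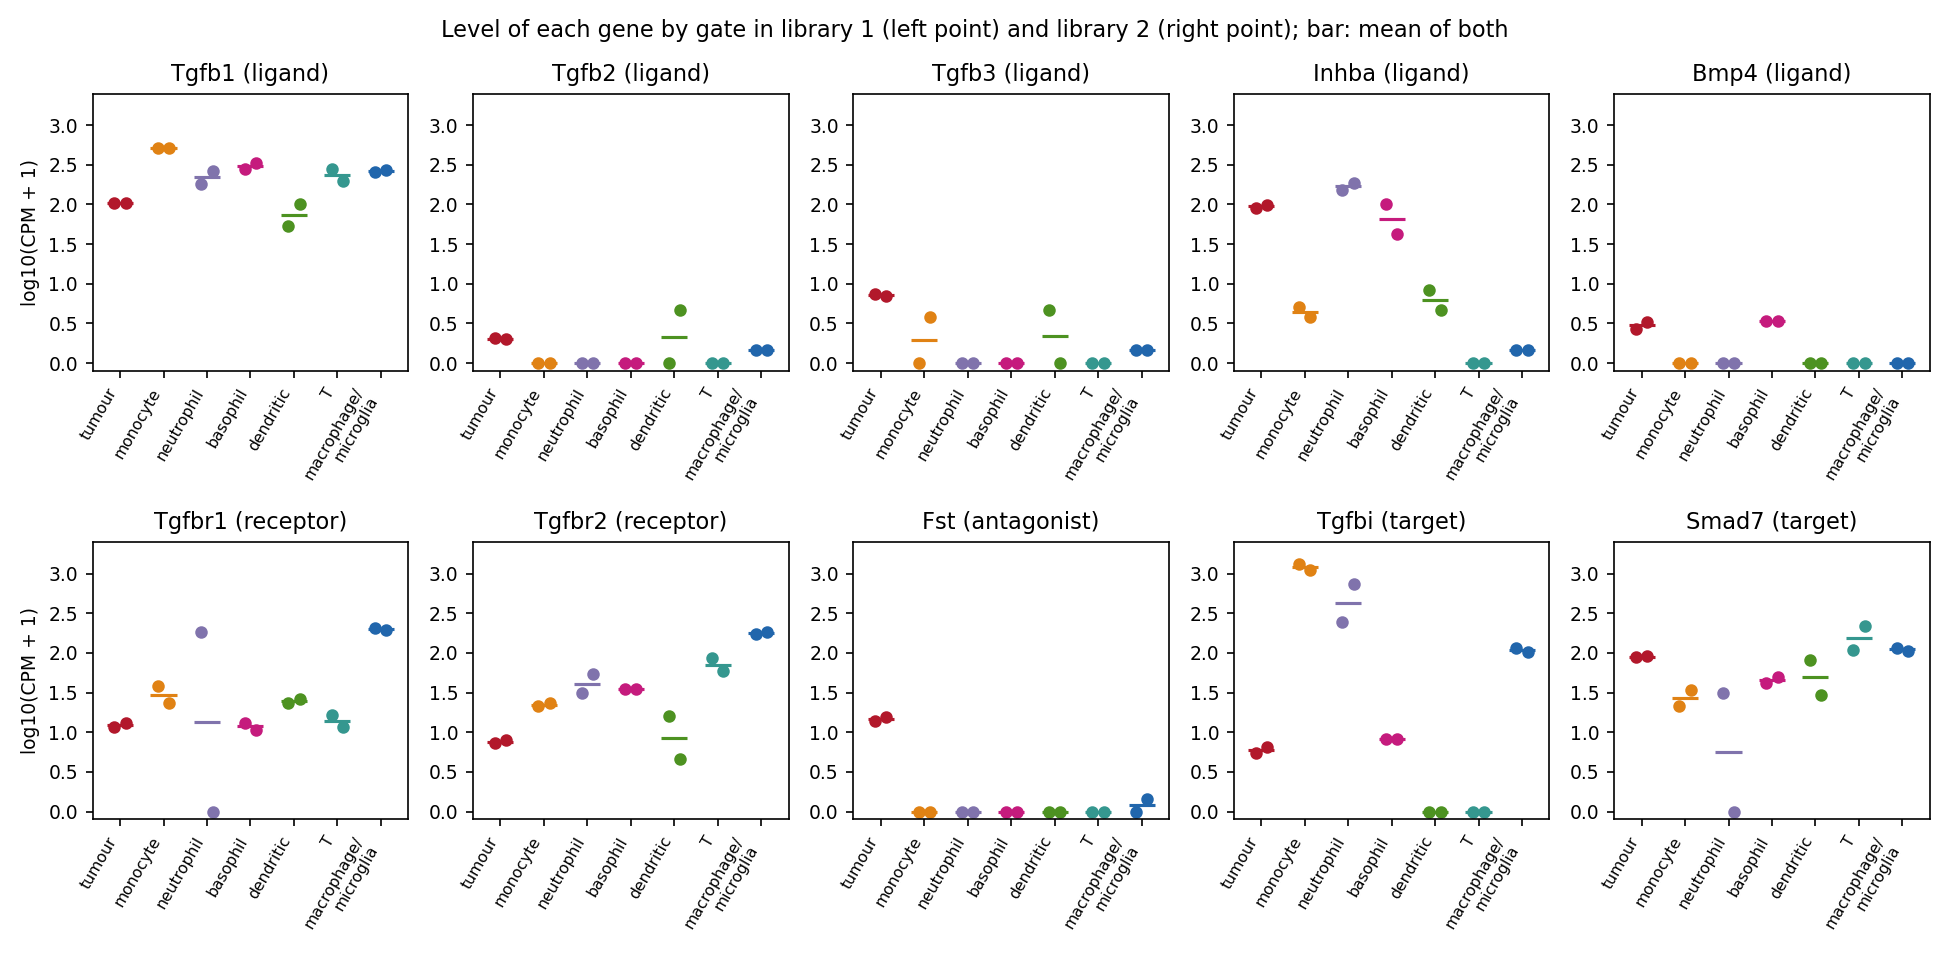
Level of each of the 10 genes, as log10(CPM + 1), by gate in replicate 1 (left point) and replicate 2 (right point), with the mean of both as a bar. Tgfb1 stood in every gate, Inhba stood between 41.3 and 186 CPM in tumour cells, neutrophils and basophils and at 0.46 CPM in macrophages/microglia, both receptors were highest in macrophages/microglia, and Tgfbi was highest in monocytes.

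Among the ligands, Tgfb1, which encodes the TGF-beta isoform most widely made by immune cells, was found in every gate and was lower in tumour cells than in macrophages and microglia (ENSMUSG00000002603, chr7:25687002-25705077, plus strand, protein coding; positions are those of GENCODE M21 on GRCm38). It had 103 and 103 CPM in tumour cells, 511 and 520 CPM in monocytes, 182 and 266 CPM in neutrophils, 281 and 333 CPM in basophils, 52.0 and 101 CPM in dendritic cells, 278 and 196 CPM in T cells, and 253 and 268 CPM in macrophages/microglia. Over single-gate cells of all depths, the 2 monocyte values lie above those of every other gate, and the dendritic and tumour values lie below the rest. The log2 fold change in tumour cells over macrophages/microglia was -1.38 ± 0.19 (SE; edgeR adjusted p = 4.57e-13), and in dendritic cells it was -2.11 ± 0.28 (edgeR adjusted p = 1.03e-12). With a stricter filter on low counts the fold in tumour cells was -0.92 and was not called. Monocytes differed from macrophages/microglia by 0.92 ± 0.20 on the log2 scale (edgeR adjusted p = 9.82e-05), which also stays under the fold threshold, and basophils, T cells and neutrophils did not pass the test. In order of level, monocytes and basophils (0.76 ± 0.22), basophils and macrophages/microglia (0.16 ± 0.21), macrophages/microglia and T cells (0.48 ± 0.26), T cells and neutrophils (0.22 ± 0.47), neutrophils and tumour cells (0.69 ± 0.46) and tumour and dendritic cells (0.73 ± 0.29) were neighbours that were not called different. The basophil level moved with 6 cells of over 20000 UMIs, 3 in each library. Without cells of that depth it was 392 and 538 CPM (mean 465 CPM), against 511 and 514 CPM in monocytes, so these gates overlapped. Counting cells that also pass another gate, the basophil level was 128 CPM and the gene was called lower (log2 fold change -1.22). In the same setting the dendritic level was 127 and 148 CPM, above that of tumour cells (104 and 103 CPM).

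Tgfb1 was seen in 90.0% of tumour cells and in 78.9% of macrophages/microglia, but the tumour cells were deeper, with median UMIs of 41617 and 46368.5 against 7893 and 9317.5. With each cell thinned to 1000 UMIs the order turned, with Tgfb1 in 9.59% of 1804 tumour cells and in 22.2% of 437 macrophages/microglia. Monocytes gave 39.1% of 64 cells on the same footing and dendritic cells 9.21% of 76.

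Tgfb2, the isoform known for its part in the developing nervous system and eye (ENSMUSG00000039239, chr1:186622792-186705989, minus strand), was rare everywhere. It had 51 and 45 UMIs in tumour cells (mean 1.04 ± 0.0476 CPM, SD, n = 2), 1 in dendritic cells, none in monocytes, neutrophils, basophils and T cells, and 1 and 1 in macrophages/microglia (0.46 and 0.46 CPM). The ratio of tumour cells to macrophages/microglia was 2.26 with a 95% counting interval of 0.609 to 18.9, and the gene was not called in any comparison. Tgfb3, which encodes the third isoform (ENSMUSG00000021253, chr12:86056745-86079041, minus strand), had 306 and 273 UMIs in tumour cells (6.42 and 6.09 CPM) and 1 and 1 in macrophages/microglia (0.46 and 0.46 CPM), and at most 1 in each other gate. Its ratio was 13.6 with a counting interval of 3.76 to 113, and it was called higher in tumour cells (edgeR adjusted p = 4.92e-06), but not by DESeq2's Wald test. Because Tgfb3 passed the filter through the tumour cells alone, the direction of this call was largely set in advance. Counting cells that pass several gates, macrophages/microglia held 7 and 3 UMIs and the log2 fold change of Tgfb3 was 1.67 ± 0.44, still called. Tgfb3 lies over Ttll5 on the opposite strand, which had 3836 UMIs, and the sources used here do not state whether strand was used in counting; without it, reads of the pair cannot be told apart.

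Inhba encodes the beta A subunit that pairs to make activin A (ENSMUSG00000041324, chr13:16011851-16031621, plus strand). In the sums of single-gate cells its level separated the tumour cells, neutrophils and basophils from the other gates. Few neutrophils and basophils held a UMI of Inhba. It had 89.9 and 97.7 CPM in tumour cells, 152 and 186 CPM in neutrophils, 99.4 and 41.3 CPM in basophils, 7.43 and 3.62 CPM in dendritic cells, 4.09 and 2.76 CPM in monocytes, 0 and 0 CPM in T cells, and 0.46 and 0.46 CPM in macrophages/microglia. The first 3 gates do not overlap with the other 4 in these sums. With cells that pass several gates counted, dendritic cells had 62.4 and 35.2 CPM and neutrophils 47.8 and 44.8 CPM, so those gates overlapped. In UMIs the levels of single-gate cells were 4284 and 4382 in tumour cells, 5 and 7 in neutrophils, 41 and 17 in basophils, and 1 and 1 in macrophages/microglia. All 5 neutrophil UMIs of replicate 1 lay in 1 of 15 cells, and the 7 of replicate 2 lay in 3 of 16. The ratio to macrophages/microglia was 204 in tumour cells, 371 in neutrophils and 153 in basophils. Because the macrophage count was 2, the 95% counting intervals of these ratios ran from 56.5 to 1686 in tumour cells, from 82.5 to 3409 in neutrophils and from 40.6 to 1297 in basophils. All 3 were called higher (edgeR adjusted p = 1.59e-84 in tumour cells, 6.34e-14 in neutrophils and 2.26e-32 in basophils). Neutrophils and tumour cells differed by 0.41 ± 0.49 and tumour cells and basophils by 0.44 ± 0.23 on the log2 scale, and neither pair was called. When cells passing several gates were counted, macrophages/microglia held 33 and 5 Inhba UMIs (11.8 and 1.81 CPM), and the log2 folds, still called by edgeR, were 3.68 ± 0.25 in tumour cells, 2.62 ± 0.68 in neutrophils and 3.53 ± 0.27 in basophils, which lies below the counting intervals above for all 3.

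At least 1 UMI of Inhba was seen in 1453 of 1816 tumour cells (80.0%), in 4 of 31 neutrophils (12.9%), in 16 of 138 basophils (11.6%), and in 2 of 441 macrophages/microglia (0.454%). The median depth was 41617 and 46368.5 UMIs in tumour cells, 1812 and 2372 in neutrophils, 3117 and 3429 in basophils, and 7893 and 9317.5 in macrophages/microglia, so the neutrophils and basophils stood above the macrophage share at a lower depth. At 1000 UMIs per cell Inhba was seen in 7.87% of 1804 tumour cells, 13.3% of 30 neutrophils, 5.11% of 137 basophils and none of 437 macrophages/microglia. Of the 58 basophil UMIs 25 lay in a single cell of replicate 1. The basophil gate's cells of over 20000 UMIs held 6 and 3 Inhba UMIs beside 48 and 74 UMIs of the tumour marker Cdkn2a, while its other 71 and 61 cells held 35 and 14 Inhba UMIs beside 9 and 1 of Cdkn2a. Without cells of that depth the level was 106 CPM and the gene was still called higher in basophils (log2 fold change 7.65 ± 0.60, edgeR adjusted p = 4.04e-35). In neutrophils, whose tumour markers were all at 0, doubling every gate threshold gave 101 CPM and counting cells that pass several gates gave 46.3 CPM.

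Bmp4, a ligand that induces the Id genes through Smad1 and its relatives (ENSMUSG00000021835, chr14:46383520-46390669, minus strand), had 82 and 104 UMIs in tumour cells (1.72 and 2.32 CPM), 1 and 1 in basophils (2.42 and 2.43 CPM), and none in any other gate, macrophages/microglia included. Against a floor of 3 counts over both libraries, the tumour level was at least 2.92-fold higher than that of macrophages/microglia, and the gene was called (edgeR adjusted p = 0.00566), though not by DESeq2's Wald test. Bmp4 too passed the filter through the tumour cells alone, which largely set the direction of its call. The opposite-strand gene Gm15222, which lies over it, had 68 UMIs.

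Both receptor genes were highest in macrophages and microglia. Tgfbr1 encodes the type I receptor kinase (ENSMUSG00000007613, chr4:47353222-47414931, plus strand). It had 10.6 and 12.2 CPM in tumour cells, 36.8 and 22.1 CPM in monocytes, 182 and 0 CPM in neutrophils, 12.1 and 9.73 CPM in basophils, 22.3 and 25.3 CPM in dendritic cells, 15.5 and 10.6 CPM in T cells, and 205 and 194 CPM in macrophages/microglia. Apart from the neutrophils, whose value rests on 6 UMIs in replicate 1 and none in replicate 2, no gate came near the macrophage level. In the neutrophil gate the microglia markers summed to 304 and 0 CPM and the macrophage markers to 1002 and 451 CPM, high and low in the same libraries as Tgfbr1, and their part in its level was not tested. The log2 fold change was -4.16 ± 0.13 in tumour cells (edgeR adjusted p = 1.39e-206), -2.88 ± 0.31 in monocytes, -4.26 ± 0.34 in basophils, -3.40 ± 0.32 in dendritic cells and -4.29 ± 0.47 in T cells, where the largest edgeR adjusted p was 2.45e-18. In neutrophils the fold was -1.72 ± 0.54 (edgeR adjusted p = 0.0175), and that call was lost with UMI totals in place of TMM factors, with DESeq2's Wald test and with cells that pass several gates. Below the macrophages/microglia and the neutrophils, no neighbours in the order of levels were called different.

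Tgfbr2 encodes the type II receptor kinase that binds TGF-beta first (ENSMUSG00000032440, chr9:116084293-116175360, minus strand), and in its order of gates T cells and basophils stood higher than in that of Tgfbr1. It had 6.36 and 6.91 CPM in tumour cells, 20.4 and 22.1 CPM in monocytes, 30.4 and 53.1 CPM in neutrophils, 33.9 and 34.0 CPM in basophils, 14.9 and 3.62 CPM in dendritic cells, 85.1 and 58.3 CPM in T cells, and 173 and 181 CPM in macrophages/microglia. The macrophage values lay above those of every other gate in both libraries. The log2 fold change was -4.78 ± 0.14 in tumour cells (edgeR adjusted p = 2.58e-243), -3.10 ± 0.33 in monocytes, -2.55 ± 0.68 in neutrophils, -2.45 ± 0.26 in basophils, -4.61 ± 0.41 in dendritic cells and -1.66 ± 0.31 in T cells, all called. The T cell value rests on 11 and 11 UMIs and the neutrophil value on 1 and 2, and the neutrophil call was lost with UMI totals (log2 fold change -2.06). The basophil level was 10.8 CPM when cells passing several gates were counted, of which 75 and 59 also pass the tumour gate. In that setting the monocyte folds were -1.49 for Tgfbr1 and -1.54 for Tgfbr2 and the T cell fold of Tgfbr1 was -1.81, all still called by edgeR. At 1000 UMIs per cell, Tgfbr1 was seen in 1.16% of tumour cells and 16.7% of macrophages/microglia, and Tgfbr2 in 0.554% of tumour cells and 16.0% of macrophages/microglia.

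**Figure D2:**
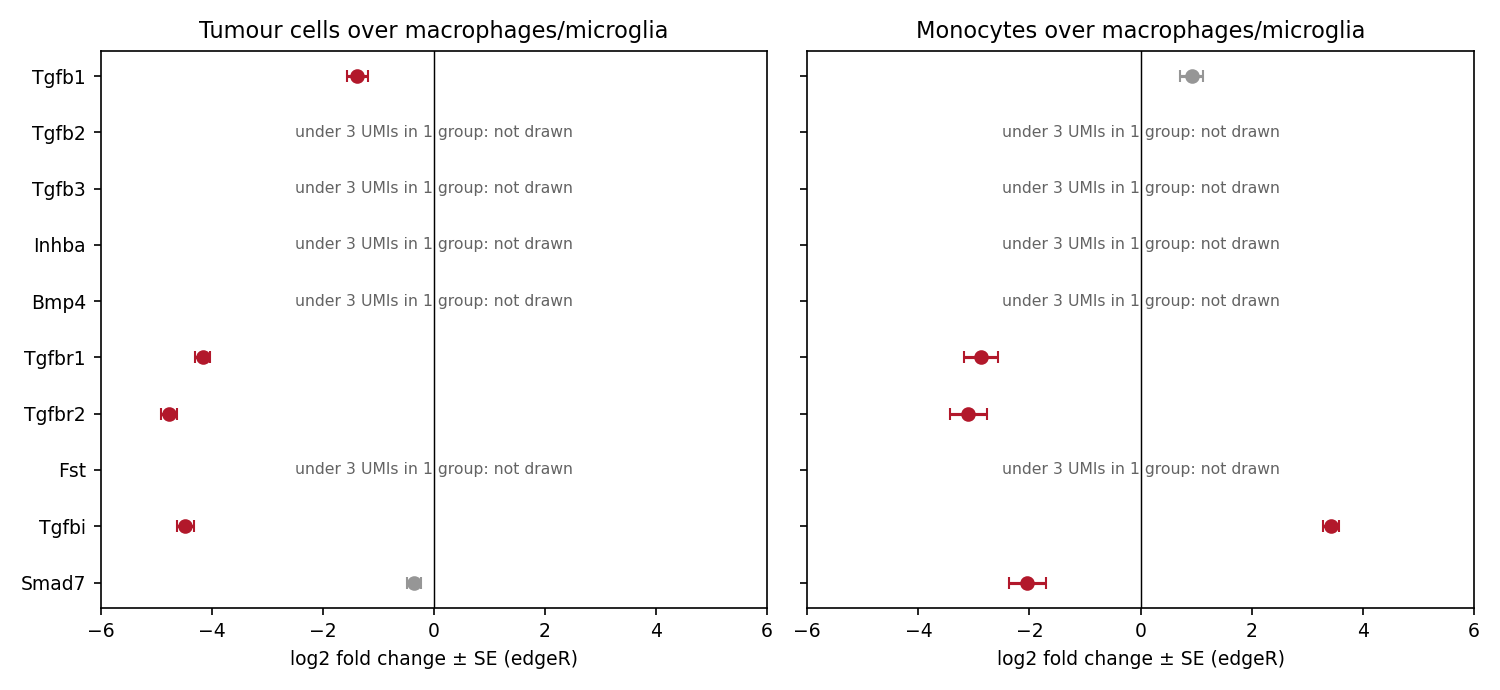
log2 fold change with its standard error from edgeR for tumour cells (left) and monocytes (right) over macrophages/microglia; red points passed the call rule, grey points did not, and genes with fewer than 3 UMIs in 1 of the groups are not drawn. Tgfbr1 and Tgfbr2 lie below 0 in both panels, whereas Tgfbi lies at -4.48 in tumour cells and at 3.42 in monocytes.

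Fst, which encodes follistatin, a secreted protein that binds activins and keeps them from their receptors (ENSMUSG00000021765, chr13:114452290-114458951, minus strand), was found in tumour cells and almost nowhere else. It had 608 and 662 UMIs in tumour cells (12.8 and 14.8 CPM), none in monocytes, neutrophils, basophils, dendritic cells and T cells, and 0 and 1 in macrophages/microglia. The ratio of tumour cells to macrophages/microglia was 59.9 with a counting interval of 10.7 to 2366, and the gene was called higher in tumour cells (edgeR adjusted p = 9.81e-15), but not by DESeq2's Wald test. Since Fst passed the filter only through the tumour cells, the direction of that call was largely set in advance. The fitted log2 fold change of 5.76 was 4.89 without replicate 1 and 9.54 without replicate 2, which holds the only macrophage UMI. The floors of 3 counts were 4.95 CPM in monocytes, 3.64 CPM in basophils, 5.50 CPM in dendritic cells, 9.43 CPM in T cells and 42.5 CPM in neutrophils, so in neutrophils even the tumour level would not have been detectable at this depth.

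Within the tumour gate Fst was unevenly spread in both libraries. Of 1816 tumour cells 218 held a UMI of it, and single cells held up to 43 in replicate 1 and 115 in replicate 2. With cells thinned to 10000 UMIs, the Fano factor (variance over mean, 1 for counting noise alone) was 4.003 and 4.35 for Fst, 1.84 and 2.17 for Inhba, 1.42 and 1.43 for Tgfb1 and 1.29 and 1.29 for Smad7. The level of Fst differed with Crabp1, a retinoic acid binding protein: the 63 and 55 tumour cells with 5 UMIs or more of it had 40.4 and 97.3 CPM, against 9.96 and 5.53 CPM in the other 923 and 775. In UMIs the Crabp1 cells held 177 and 439 and the others 431 and 223, so most Fst lay outside the Crabp1 cells in replicate 1 and inside them in replicate 2, where a single tumour cell held 115. Tumour cells with at least 10 UMIs of the MHC class II chain Cd74, 26 and 24 in number, had 103 and 141 CPM, against 9.58 and 9.15 CPM in the rest. The median depth of the Crabp1 cells was 59553 and 72956 UMIs, against 40448 and 45428 in the others, and that of the Cd74 cells 55618.5 and 60466.5 UMIs, against 41137 and 46058. In cells with at least 5 UMIs of the cycling genes Mki67 and Top2a together, Fst stood at 16.3 and 20.1 CPM, against 7.60 and 7.03 CPM below that, with median depths of 55461 and 61031 UMIs, against 34601 and 39344. The part of depth in these differences was not tested. These strata are ranges of cells chosen by 1 gene each, cells may fall in several, and no test was made between them.

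The other members were read along the same strata. Inhba was 1.49 and 1.34 times as high in tumour cells with a UMI of the EGF-family ligand Areg as in those without, and Tgfb3 was 0.299 and 0.349 times as high. Tgfb3 was 1.94 and 2.07 times as high in cells with a UMI of the tendon transcription factor Scx as in those without. Tgfb1 was 0.620 and 0.659 times as high in the Crabp1 cells as in the rest, and 0.522 and 0.671 times as high in the Cd74 cells. In cells with a UMI of Csf3, the gene of G-CSF, Tgfb1 stood at 114 and 114 CPM, against 100.03 and 99.8 CPM in the others, and Inhba at 89.8 and 105 CPM, against 89.96 and 95.8 CPM. Median depth was 43822.5 and 49124 UMIs with Areg, against 27136 and 34553 without. It was 44113 and 48680 UMIs with Scx, against 39317 and 44669.5 without. With Csf3 it was 53438 and 59165.5 UMIs, against 39917.5 and 44855.5 without. The part of depth in these ratios was not tested either. Across single tumour cells at 10000 UMIs (954 and 798 cells), the correlations between members were weak, from -0.0555 between Tgfb1 and Fst to 0.148 between Tgfb2 and Tgfb3, which at these counts is no finding.

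Of the targets, Tgfbi, a secreted matrix protein named for its induction by TGF-beta, was highest in monocytes (ENSMUSG00000035493, chr13:56609523-56639562, plus strand). It had 4.45 and 5.48 CPM in tumour cells, 1321 and 1109 CPM in monocytes, 243 and 743 CPM in neutrophils, 7.27 and 7.29 CPM in basophils, 0 and 0 CPM in dendritic cells and T cells, and 114 and 101 CPM in macrophages/microglia. The monocyte values lay above all others, and the neutrophil values lay above the macrophage values in both libraries. The log2 fold change over macrophages/microglia was 3.42 ± 0.14 in monocytes (edgeR adjusted p = 3.39e-125) and 1.75 ± 0.33 in neutrophils (edgeR adjusted p = 4.72e-06). In tumour cells it was -4.48 ± 0.15 (edgeR adjusted p = 1.56e-185) and in basophils -3.96 ± 0.41 (edgeR adjusted p = 3.65e-20). Against the floor of 3 counts, the level was at least 19.6-fold lower in dendritic cells and at least 11.4-fold lower in T cells than in macrophages/microglia. These bounds hold for cells of a single gate: counting cells that pass several gates, dendritic cells held 58 and 1 UMIs (log2 fold change -2.63, still called) and T cells 5 and 35 UMIs (-1.37, not called, edgeR adjusted p = 0.0527). The neutrophil value rests on 8 and 28 UMIs, and counting cells that pass several gates it was 194 CPM and no longer called (log2 fold change 0.27). Leaving out replicate 1 gave a fold of 2.37 and leaving out replicate 2 a fold of 0.51. Monocytes and neutrophils differed too, by 1.68 ± 0.25 (edgeR adjusted p = 3.06e-09).

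Nearly every monocyte held Tgfbi, 62 of 64, with up to 39 UMIs in a cell, whereas 154 of 441 macrophages/microglia did (34.9%). At 1000 UMIs per cell the shares were 57.8% and 7.32%. Among tumour cells 13.5% held a UMI. In replicate 2 a single tumour cell held 58 of the 246 Tgfbi UMIs, and the Fano factor was 6.395 there, above that of Fst, and 1.14 in replicate 1. None was seen in 52 T cells and 76 dendritic cells; with 3 counts as the limit for a count of 0, this allows a UMI in 5.77% of T cells and 3.95% of dendritic cells, and at their shallow depth it sets no limit on cells that express the gene.

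Smad7, an inhibitory Smad that TGF-beta and BMP signals induce and that blocks their receptors (ENSMUSG00000025880, chr18:75367529-75395935, plus strand), differed less between gates. It had 87.8 and 89.5 CPM in tumour cells, 20.4 and 33.2 CPM in monocytes, 30.4 and 0 CPM in neutrophils (1 UMI), 41.2 and 48.6 CPM in basophils, 81.7 and 29.0 CPM in dendritic cells, 108 and 217 CPM in T cells, and 115 and 106 CPM in macrophages/microglia. Monocytes stood below macrophages/microglia in both libraries, and T cells overlapped with them. The log2 fold change was -2.04 ± 0.34 in monocytes (edgeR adjusted p = 3.55e-08), -1.37 ± 0.26 in basophils (edgeR adjusted p = 1.64e-06), -1.35 ± 0.29 in dendritic cells (edgeR adjusted p = 1.98e-05) and -3.45 ± 0.999 in neutrophils (edgeR adjusted p = 0.00698). In tumour cells it was -0.36 ± 0.13 and in T cells 0.33 ± 0.26, neither of them called. The calls in basophils, dendritic cells and neutrophils were lost when cells passing several gates were counted, with folds of -0.43, -0.77 and -1.07, and the neutrophil call was also lost with UMI totals (-2.96) and with DESeq2's Wald test (-3.38).

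Shares of UMIs show where each RNA mainly lay in these libraries. Tumour cells held 78.6% and 79.1% of all UMIs of the cells kept, and 92.8% and 90.3% of those of Fst, 83.5% and 86.9% of Inhba, and 70.4% and 69.4% of Tgfb1. The macrophages/microglia, with 3.59% and 3.85% of all UMIs, held 38.8% and 36.5% of those of Tgfbr1 and 44.6% and 45.3% of those of Tgfbr2. Monocytes, with 0.403% and 0.638% of all UMIs, held 30.7% and 30.9% of the Tgfbi UMIs. These shares depend on how many cells of each kind were captured.

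**Figure D3:**
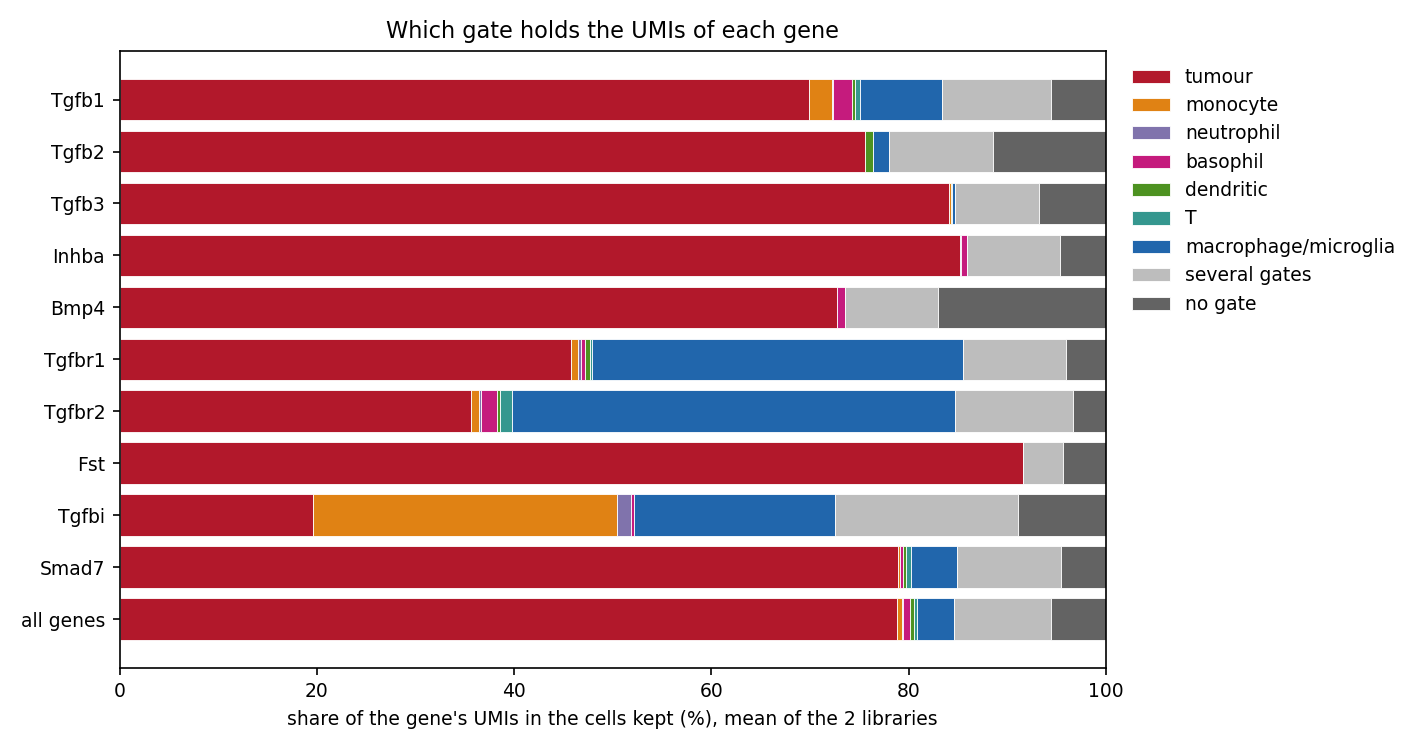
Share of the UMIs of each gene that lay in each gate, in cells passing several gates and in cells passing none, as a mean of both libraries in percent of the cells kept; the lowest bar gives the same for all genes together. Macrophages/microglia take a large part of the receptor bars and monocytes of the Tgfbi bar, whereas the Fst bar is almost all tumour.

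Among C1qa-gated cells with RNA of the nuclear transcript Malat1, those with a UMI of Cx3cr1, a chemokine receptor of microglia, were set against those without. The groups were very unequal, 167 and 138 Cx3cr1-positive cells against 7 and 5 Cx3cr1-negative cells with 38595 and 31344 UMIs. Median depth was 10259 and 10728 UMIs in the positive cells and 2654 and 2046 in the negative cells, and the part of depth in the results was not tested. The microglial genes P2ry12, Tmem119, Sall1, Fcrls, Olfml3, Gpr34 and Siglech, known in the mouse to depend on TGF-beta, were called higher in the positive cells, where 6.57% of 13949 genes were called, 5.77% higher and 0.796% lower, with folds from 2.74 ± 0.83 for Sall1 to 4.39 ± 0.87 for Siglech on the log2 scale (edgeR). Tmem119 had a mean of 514 ± 8.47 CPM in the positive cells and 60.8 ± 49.4 CPM in the negative cells (SD, n = 2 libraries each). Of the 10 members, 3 were called higher: Tgfb1 (1.502 ± 0.43, but -0.17 where Malat1 was not required), Tgfbr1 (2.53 ± 0.49) and Tgfbr2 (1.57 ± 0.44). In CPM, Tgfbr1 had 228 and 220 in the positive cells and 77.7 and 95.7 in the negative cells, Tgfbr2 had 186 and 201 in the positive and 104 and 191 in the negative cells, and Tgfb1 had 248 and 267 in the positive and 233 and 160 in the negative cells. The median of all genes was itself 0.91 in this comparison, 0.28 with DESeq2 size factors and 0.00 with UMI totals, and with UMI totals 0 members and 540 genes were called, with 1601 genes at an unadjusted p under 0.05. The Tgfbr1 values do not overlap between the groups, whereas those of Tgfbr2 overlap and those of Tgfb1 lie close together.

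The genes around the members in the pathway were read from lists. Of 10 other ligand genes tested, 7 were higher in tumour cells and 2 lower, beside 26.5% of all genes higher and 20.6% lower. The lower ones were Lefty1, a family member known for opposing Nodal, and Gdf9. Lefty1 had 0.042 and 0.022 CPM in tumour cells and 27.1 and 22.9 CPM in macrophages/microglia (3 and 109 UMIs in all; ratio 0.0013, counting interval 0.000263 to 0.00389), and the 7 higher ones, among them Bmp2, Bmp6, Bmp7 and the activin subunit Inhbb, stayed under 10 CPM in tumour cells. Of 10 other receptor genes Tgfbr3 and Acvr2b were higher and 2 were lower, no more than the 26.5% and 20.6% of all genes. Acvrl1, the type I receptor ALK1, had 0.042 and 0.089 CPM in tumour cells and 81.8 and 65.5 CPM in macrophages/microglia, and its co-receptor Eng had 4.51 and 4.26 CPM in tumour cells and 34.9 and 25.2 CPM in macrophages/microglia. The activin and BMP receptor genes Acvr1, Acvr1b, Acvr2a, Bmpr1a and Bmpr2 were not called in tumour cells. As with the members, a gene with no UMI in macrophages/microglia could pass the filter only through a gate where it is high.

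Of 15 genes of latency, activation and binding proteins tested, 8 were higher in tumour cells and 2 lower, beside 26.5% of all genes higher and 20.6% lower. Several of the 8, Fstl1 and Grem1 among them, had no UMI in macrophages/microglia and could not have been called lower. The count of 8 was thus partly set by the filter. Ltbp1, which tethers latent TGF-beta to the matrix, had 33.1 and 36.3 CPM in tumour cells and 0.46 and 0 CPM in macrophages/microglia. Nrros, which holds latent TGF-beta on microglia and other myeloid cells, had 0.126 and 0.067 CPM in tumour cells and 117 and 110 CPM in macrophages/microglia. Its log2 fold change was -10.00 ± 0.24, and in monocytes Nrros stood at 217 and 171 CPM. The follistatin-like gene Fstl1 had 112 and 111 CPM in tumour cells and none in macrophages/microglia, and the BMP antagonist Grem1 had 16.9 and 21.4 CPM in tumour cells and none in macrophages/microglia. Thbs1, a matrix protein that can activate latent TGF-beta, was lower in tumour cells, with 3.27 and 4.95 CPM against 51.5 and 16.0 CPM in macrophages/microglia. In monocytes Thbs1 had 478 and 235 CPM and was higher than in macrophages/microglia (3.29 ± 0.21 on the log2 scale), as was Furin, the protease that cuts TGF-beta precursors, with 110 and 149 CPM in monocytes and 57.9 and 65.5 CPM in macrophages/microglia. Ltbp3 and Ltbp4, named after their values were seen, had means of 60.8 and 35.5 CPM in tumour cells and 2.75 and 0.687 CPM in macrophages/microglia.

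Of 11 Smads and regulators tested, 4 were higher in tumour cells and none lower, beside 26.5% of all genes higher and 20.6% lower, and their median log2 fold change was 0.43. The higher ones were Smad4, the Smad shared by all branches (1.11 ± 0.18), the ubiquitin ligase Smurf1 (1.65 ± 0.27), the repressor Tgif1 (1.02 ± 0.14) and Smad6. The receptor-activated Smad1, Smad2, Smad3 and Smad5 were not called. Of 8 other targets, 4 were higher and 2 lower, beside the same 26.5% and 20.6% of all genes. Some of the 4 had no UMI in macrophages/microglia and could not have been called lower. The BMP targets Id1 and Id3 were higher in tumour cells, Id3 with 299 and 298 CPM against 5.52 and 0.458 CPM in macrophages/microglia and Id1 with 81.6 and 71.8 CPM against 5.52 and 2.75 CPM. Id2, of the same family, was lower, with 13.1 and 16.6 CPM in tumour cells and 196 and 204 CPM in macrophages/microglia, as was Ldlrad4, an inhibitor of the pathway (-1.43 ± 0.25). Pmepa1, a target that dampens TGF-beta signalling, was not called in tumour cells (414 and 430 CPM, against 225 and 256 CPM in macrophages/microglia), and in monocytes it was lower, with 53.2 and 8.29 CPM. The microglial genes P2ry12, Tmem119, Sall1, Fcrls, Olfml3, Gpr34 and Siglech were called lower in tumour cells, with Tmem119 at a mean of 2.4 CPM in tumour cells and 474 CPM in macrophages/microglia.

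**Figure D4:**
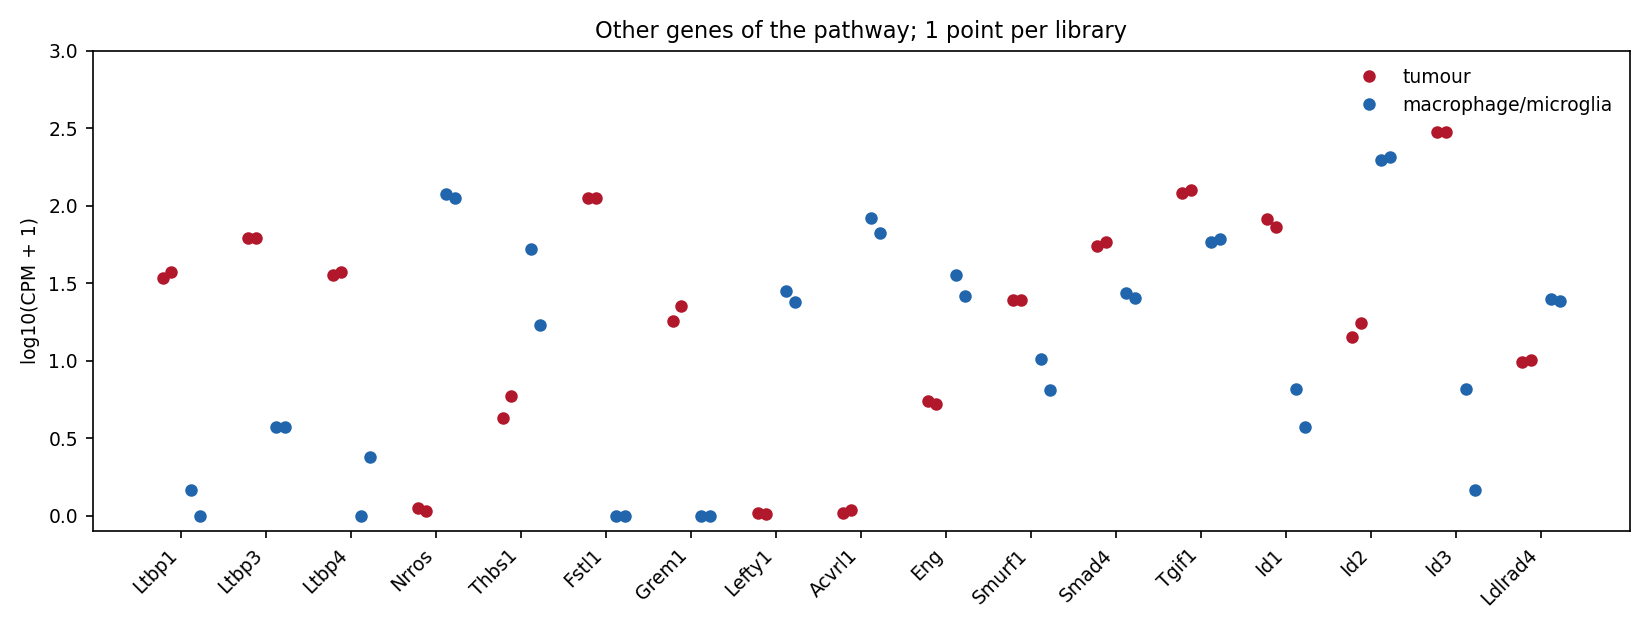
Level of other pathway genes, as log10(CPM + 1), in tumour cells (red) and macrophages/microglia (blue), 1 point per library. Ltbp1, Ltbp3, Ltbp4, Fstl1, Grem1, Id1 and Id3 lie higher in tumour cells and Nrros, Lefty1, Acvrl1, Eng, Thbs1 and Id2 higher in macrophages/microglia, while Smad4, Smurf1, Tgif1 and Ldlrad4 lie closer together.

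Genes whose levels ran most like those of the members were found over the 14 sums of gate and library, among 10919 genes with at least 200 UMIs, by Pearson's r of log2(CPM + 1). The sums share libraries and differ in depth, so r is a description. For a gene found almost only in tumour cells, as Fst was, r mainly reads whether another gene is confined to that gate too. Fst ran closest to Stra6 (0.999) and Tenm3 (0.997), Inhba to Efnb2 (0.948) and Klf5 (0.929), and Tgfb3 to Usp27x (0.968) and Plxna1 (0.909). Tgfbr1 ran closest to Ckb (0.926), and Tgfbr2 to Glrx (0.889) and Ctsd (0.886). Tgfbi ran closest to Prdx5 (0.967) and Aldh3b1 (0.963), Smad7 to Surf2 (0.946) and Cherp (0.943), and Tgfb1 to Lamtor4 (0.883) and Arpc1b (0.883).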

How the data were processed

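Per the labels' protocols and the submitters' processing notes, the authors used Cell Ranger 3.1 with alignment to mm10; the deposited matrices hold raw UMI counts per gene and barcode. The protocol mentions scaling several run outputs to one depth; whether this touched the matrices is not stated, their totals differ, and they were used as deposited. The gene annotation is not given in the sources used here; of 31053 gene identifiers 30934 were found in GENCODE M21.

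The gates, read on raw UMIs, were Nras at 1000 CPM or more (tumour), C1qa at 5 UMIs or more (macrophage/microglia), Ly6c2 at 1 and Lyz2 at 5 (monocyte), S100a8 plus S100a9 at 10 (neutrophil), Mcpt8 at 1 (basophil), Ccr7 at 1 (dendritic) and Cd3e at 1 (T). No doublet caller was run; cells passing several gates were left out. Counts were summed per gate and library, and the 14 sums entered edgeR 4.0.16 (R 4.3.3, limma 3.58.1) with TMM factors, the library as a block, at least 20 UMIs per gene, 6 residual degrees of freedom and Benjamini-Hochberg adjustment over all genes tested. The library block pairs sums because both come from the same library. The Cx3cr1 comparison put the positive and negative cells in place of the C1qa gate. Binomial intervals are exact (Clopper-Pearson) and ratio intervals are exact for counts, at 95%; intervals and floors of 3 counts cover counting error only. Alternatives covered gate overlap, Malat1, DESeq2 1.42.0 size factors and Wald test, UMI totals, filters on genes and cells, and each library left out. Scripts used Python 3.11.15 with numpy 2.4.6, scipy 1.17.1 and pandas 2.3.3, and the fit was tested on simulated data. No tumour cell reached 20 UMIs of Col1a1, so that planned stratum has no value.

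The members, gene lists and tests were chosen with earlier results of these data known. All 10 members are named. From each wider list the text names up to 3 called genes in each direction with the largest fold in tumour cells and at least 10 CPM in the higher gate in both libraries, plus the called microglial genes of the Cx3cr1 comparison, and for each member with at least 200 UMIs the 2 genes most like it; genes named beyond this rule were chosen after their values were seen. A gene that this rule names is not reported here.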

Additional observations from a re-analysis of the deposited data

Results flagged for a closer look

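The 331 cells that passed no gate enter no comparison, yet they held UMIs of every member above the limit of 0.453 CPM that 3 counts give. Their levels, over both libraries, were 114 CPM for Tgfb1, 2.27 CPM for Tgfb2, 7.1 CPM for Tgfb3, 71.9 CPM for Inhba, 7.86 CPM for Bmp4, 13.9 CPM for Tgfbr1, 8.61 CPM for Tgfbr2, 8.92 CPM for Fst, 32.6 CPM for Tgfbi and 72.4 CPM for Smad7. Bmp4 stood at 1.69 CPM in replicate 1 and 18.2 CPM in replicate 2, and Tgfbi at 16.1 and 60.4 CPM. What these cells are was not tested.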

How the results depend on the processing

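The 33 called member results gave 456 values under the alternatives. Of these, 421 kept direction and, where a call was made, the call, while 27 kept direction but lost the call. Another 6 moved with a library left out and 2 reversed, and the cause was not tested. With a library left out no call was made. Such a fold counted as kept if it differed from the main fold by no more than the SD of both left-out folds. That limit widens as the libraries disagree, so it is a weak check. Leaving out the replicate block changed no call of a member, and the calls over all genes were 6869 in tumour cells and 1605 in neutrophils without the replicate block, against 6578 and 1581 with it. In tumour cells filterByExpr, which tests fewer genes, called 3982 genes and 4 members, and DESeq2's Wald test 5 members, against 8. Counting cells that pass several gates gave 1137 calls in monocytes (1804 in the sums of single-gate cells), 903 and 2 members in neutrophils (1581 and 5) and 6062 in basophils (3658). Asking for a Malat1 UMI removed 124 macrophage/microglia and 14 tumour barcodes but no neutrophil, and the neutrophil comparison then had 2594 calls. In neutrophils UMI totals called 2 members and DESeq2's Wald test 3. With UMI totals the split of higher and lower calls was 683 and 590 in neutrophils (554 and 1027 with TMM), 2000 and 1220 in dendritic cells (1398 and 1608) and 1179 and 1140 in T cells (850 and 1483). The Cx3cr1 comparison, which rests on 12 negative cells, was the least stable. Against 916 calls and 3 members in the main fit, 434 genes were called without asking for Malat1. DESeq2 size factors gave 538 calls and 1 member, UMI totals 540 and 0 members, and DESeq2's Wald test 0 members. A split at 1000 CPM gave 143 calls and 0 members. That alternative, like the one on cells of over 20000 UMIs, was chosen after seeing the data. How far these sets of calls overlap was not computed in this comparison. With UMI totals 123 genes were higher and 417 lower there, against 805 and 111. Tgfb1 reversed in that comparison to -0.17 without asking for Malat1 and to -0.17 with the split at 1000 CPM. Of 70 member levels by gate, 63 stayed within 1.5-fold with doubled gate thresholds, 48 with cells of several gates, 66 without cells of over 20000 UMIs, and 64 and 66 without replicate 1 and replicate 2. With a library left out no degrees of freedom remain, so only folds were computed. Depth limits the neutrophil and Cx3cr1-negative values most.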
